A study of Mus musculus with 12 samples.

Results

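Untreated Sox7-/- ES cells were compared with untreated Sox7+/- ES cells, to describe which genes differed between the genotypes before Gata6 was activated. The comparison used the 6 arrays of cells kept for 4 days without dexamethasone (Dex), 3 of each genotype, out of 12 arrays in the series. Of 55681 probes on the array besides controls, the 24830 probes whose signal exceeded background clearly on all 3 arrays of either genotype were compared. A probe whose signal clearly exceeded background on an array is called well above background on that array. The compared probes carried 18304 of the 34836 gene names on the array. The remaining 6 arrays were of the same lines after 4 days with Dex, as XEN-like cells, and were used where the difference between genotypes before and after induction was set side by side.

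ES cells are derived from the epiblast of the blastocyst and keep its pluripotency under Lif. A network of transcription factors around Pou5f1, Sox2 and Nanog holds this state, and cells in serum move between a naive state and one nearer to the primed epiblast. Rare cells in such cultures pass through a state resembling the 2-cell embryo, marked by the Zscan4 genes. Sox7 is a transcription factor of the Sox F family expressed in the primitive endoderm, the tissue that gives the parietal and visceral endoderm of the yolk sac.

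All cells of the series carried Gata6-GR, Gata6 fused to the ligand-binding domain of the glucocorticoid receptor, under a CAG promoter on a piggyBac vector, and were grown with serum and Lif on gelatin. Dex induces the nuclear localization of the fusion protein, and whether it was fully inactive without Dex was not tested. In the Sox7+/- line 1 allele of Sox7 was replaced by a puromycin resistance cassette. The Sox7-/- line was taken from that line as a clone surviving a high dose of puromycin, so each genotype was 1 line, and loss of Sox7 cannot be told apart from other differences between the lines. The sources do not say whether replicates were separate cultures, and the source labels of all 3 Sox7+/- ES samples carry replicate number 1 while their titles run from 1 to 3. If these were not separate samples, the p-values rest on a spread that is in part technical. A further limit lies in the slides. The 3 Sox7-/- ES arrays shared slide 1 with replicate 1 of the Sox7-/- XEN-like cells, and the other 8 arrays, all Sox7+/- arrays among them, were on slide 2. Within the ES arrays slide and genotype cannot be told apart, and a fit with slide as a term separates them only through the 3 Sox7-/- XEN-like arrays.

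Values per array are given as the scaled signal, which is the background-subtracted signal divided by the 75th percentile of the array. Differences are on the log2 scale, Sox7-/- minus Sox7+/-, from limma over all 12 arrays, with a standard error (SE) and a Benjamini-Hochberg adjusted p over all 24830 probes. A probe was called higher or lower at an adjusted p under 0.05 and a difference of more than 2-fold. Where a probe was not well above background on any array of a genotype, the fold is given as a lower bound. Scaled signals of different probes cannot be compared with each other. The 75th percentile lay between 283.4 and 415.9 intensity units on the ES arrays. Spots well above background made up 47.4% to 52.3% on the Sox7+/- arrays and 43.2% to 44.4% on the Sox7-/- arrays. Probes enter the comparison through either genotype, and the counts depended on this. Of all 24830 probes, 499 were called higher and 1631 lower. Of the 21940 probes well above background on all 6 ES arrays, 386 were called higher and 807 lower. Why the genotypes differed in the share of such spots was not tested. Replicates were close, with a median SD over probes of 0.0834 (log2) in Sox7+/- and 0.105 in Sox7-/- cells.

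Sox7 itself was read by 1 probe (A_51_P476018, chromosome 14, 64569419 to 64569478 on mm9), which begins at base 3115 of its transcript, and the sources do not say whether that end lay within the replaced sequence. Its scaled signal was 2.24, 2.18 and 2.29 on the Sox7+/- arrays and 0.0182, 0.0201 and 0.0257 on the Sox7-/- arrays, where it was not well above background. Sox7 was at least 24.7-fold lower in Sox7-/- cells (log2 difference −6.73, SE 0.20, adjusted p = 9.8e-09), as the labels say. All 5 ES cell markers checked (Pou5f1, Sox2, Nanog, Zfp42 and Esrrb) were well above background on every ES array. Their summed scaled signal was 196 to 207 on the Sox7+/- arrays and 408 to 440 on the Sox7-/- arrays. Markers of the extraembryonic endoderm (Gata4, Gata6, Sox17, Foxa2, Dab2 and Lama1) were also well above background on all 6 ES arrays, with sums of 345 to 353 in Sox7+/- and 262 to 291 in Sox7-/- cells, and none was called. Lama1 alone gave 294, 296 and 291 against 207, 216 and 239 and made up most of these sums. In the XEN-like cells the sums were 843 to 926 and 782 to 806. Of the fibroblast markers, Dcn and Lum were not well above background on any ES array, and the sums were 3.66 to 4.14 and 4.28 to 4.55. For the trophectoderm markers, the sums were 1.8 to 1.91 in Sox7+/- and 0.465 to 0.571 in Sox7-/- cells, and Elf5 was not well above background. The sums of the endothelial markers overlapped, at 11 to 12 and 10.9 to 11.3. In RNA from whole cultures, fewer cells of a type and less RNA per cell cannot be told apart, and this holds for every gene group below.

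Among probes called at over 2-fold, more were lower than higher in Sox7-/- ES cells, and without the fold limit the reverse held. Of the 24830 probes, 499 were higher (2.01%) and 1631 were lower (6.57%) in Sox7-/- cells, or 8.58% in all. Probes higher in Sox7-/- cells made up 23.4% of those called. Of the probes lower in Sox7-/- cells, 635 were not well above background on any Sox7-/- ES array, and of the probes higher, 41 were not on any Sox7+/- ES array, so the size of these differences is only bounded. Of the other 458 higher and 996 lower probes, 33 and 226 differed by over 4-fold, 5 and 76 by over 8-fold, and 0 and 36 by over 16-fold. Groups did not overlap for 2123 of the 2130 called probes, but this was so for 16684 (67.2%) of all tested probes. Small shifts were therefore common, and 7390 probes higher and 4307 lower passed an adjusted p of 0.05 at any fold. The median difference of all tested probes was 0.10, and −0.05 when the arrays were scaled by spike-in controls. Counted by the brightest probe of each gene, 2.04% of the 18304 genes were higher and 6.61% lower, and these shares stand beside the gene lists below. The lists were chosen with earlier results of these data known, so their counts describe the lists and are not a test against these shares. The plot of all lists shows the 2-cell-like, Srf and Yap, and trophectoderm genes far to the left.

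**Figure D1:**
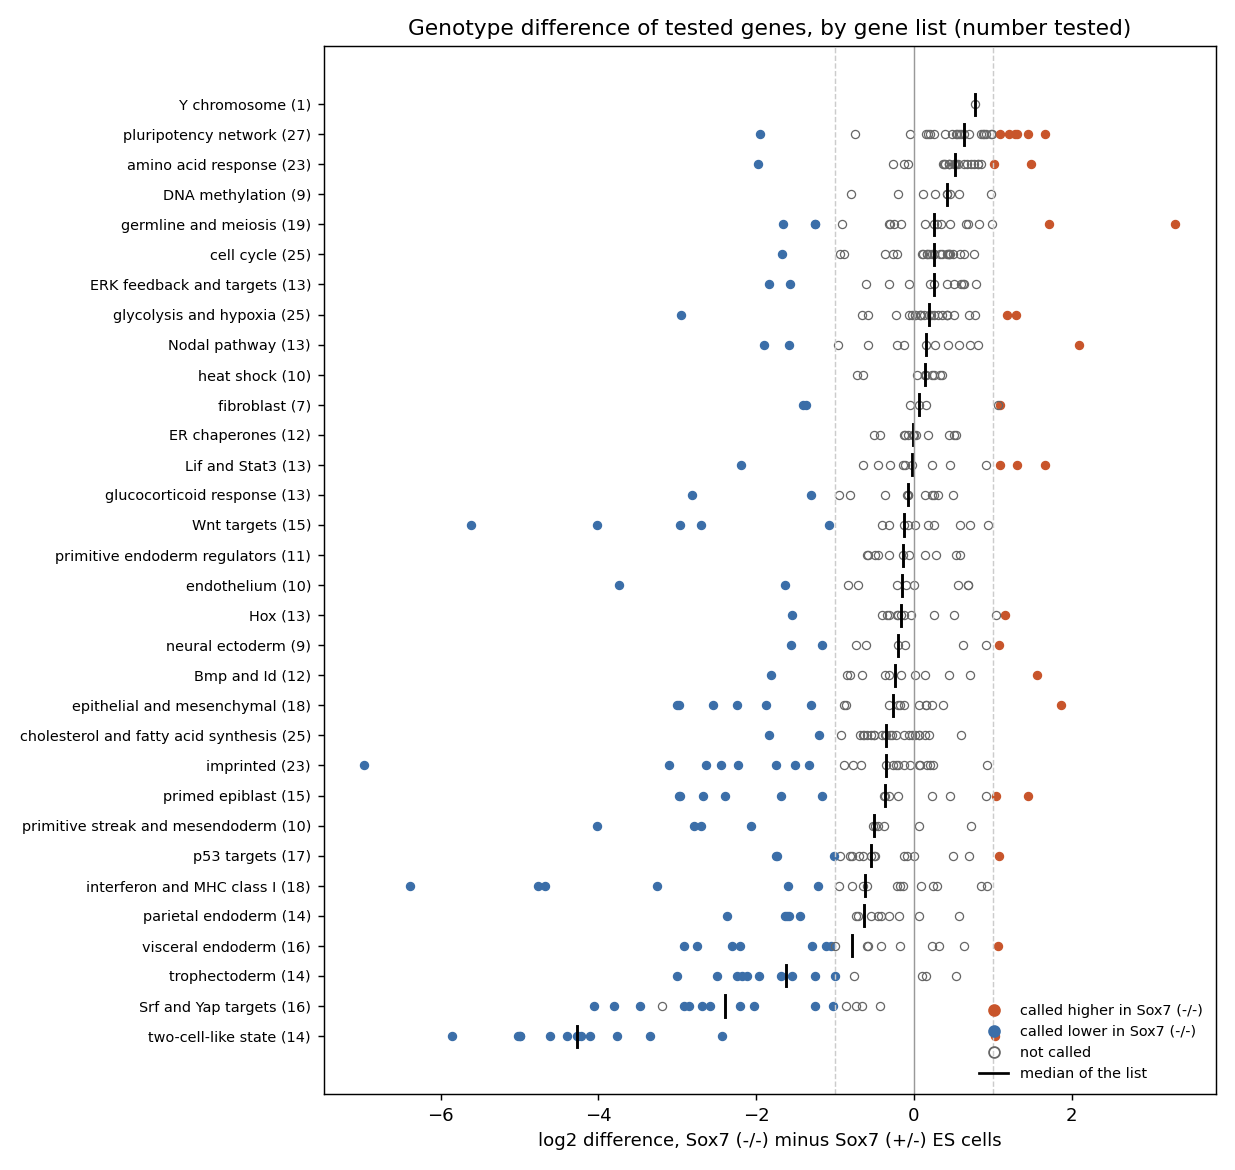
Each row is a gene list with the number of genes tested, and each point is the log2 difference of 1 gene by its brightest probe, Sox7-/- minus Sox7+/- ES cells. Filled points passed an adjusted p under 0.05 and 2-fold (dashed lines), black bars are list medians, and the lowest median was −4.27, in the 2-cell-like list.

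Several genes of the pluripotency network were higher in Sox7-/- ES cells. Of 27 tested, 6 were called higher and 1 lower, with a median difference of 0.63, and of 0.39 with the slide as a term, against 0.12 over all genes in both fits. Klf4, a Lif-responsive factor of the naive state, had scaled signals of 17.6, 18 and 17.7 in Sox7+/- and 44.9, 44 and 43.3 in Sox7-/- cells (log2 difference 1.31, SE 0.07, adjusted p = 4.8e-07). For the orphan nuclear receptor Nr0b1 the signals were 14.9, 14.4 and 14.4 against 40.4, 40.2 and 38.8 (1.45, SE 0.10, adjusted p = 4e-06). Esrrb, another orphan receptor of the naive network, had signals of 75.6, 79.8 and 76.3 against 179, 202 and 181 (1.28, SE 0.09, adjusted p = 2.5e-06), although only 1 of its 2 probes was called. In these 3 genes the genotypes did not overlap, as in 67.2% of all tested probes. Zfp42 (Rex1), a marker lost early in differentiation, was higher by 1.09, the Akt cofactor Tcl1 by 1.21 and the homeobox gene Gbx2 by 1.66. With the slide as a term Tcl1 (0.88, adjusted p = 0.034) and Gbx2 (0.89, adjusted p = 0.063) were not called. Dppa3 (Stella), a maternal factor that guards DNA methylation, went the other way, with signals of 0.783, 0.704 and 0.879 against 0.17, 0.16 and 0.307 (−1.95, SE 0.31, adjusted p = 0.00065).

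By their brightest probes the core factors themselves were not called. Sox2 had scaled signals of 8.12, 8.84 and 8.46 in Sox7+/- and 12.7, 11.6 and 12.4 in Sox7-/- cells, a log2 difference of 0.53 (SE 0.13, adjusted p = 0.0088) that was under 2-fold. For Nanog the signals were 53.2, 56.6 and 53.9 against 103, 102 and 98.2 (0.89, adjusted p = 0.19), and with the slide as a term the difference was −0.32. Of its 3 probes a dimmer one was called, with 4.64, 5.13 and 4.81 against 11.2, 9.71 and 9.39 (1.05, adjusted p = 0.00013), and was not called with the slide term (0.66). Pou5f1 signals were 11.8, 12 and 11.3 against 35.2, 16.4 and 16.2 (0.85, adjusted p = 0.18). Replicate 1 of the Sox7-/- cells stood apart in Pou5f1, and without it the difference was 0.48. The difference was −0.52 with the slide as a term. Members that were not called ranged from −0.75 (Tfap2c) to 0.99 (Tbx3). Of the Lif and Stat3 genes, 3 of 13 were higher and 1 lower. Besides Klf4 and Gbx2, the Stat target Socs2 was higher by 1.09, with all 4 of its probes called, and the oncostatin M receptor gene Osmr was lower by at least 2.68-fold, and not called with the slide as a term (−2.0, adjusted p = 0.13). None of 9 genes of DNA methylation and demethylation was called by its brightest probe (median 0.42, and 0.20 with the slide as a term), while 1 of 3 probes of Tet1 was lower and 1 of 3 of Tet2 higher. Among cell cycle genes, 1 of 25 was called, the cyclin gene Ccnd2 (−1.67).

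Genes of the 2-cell-like state fell together. Of 14 tested, 13 were called lower and 1 higher in Sox7-/- cells, with a median difference of −4.27. Zscan4f, a zinc-finger and SCAN-domain gene tied to telomere maintenance, had scaled signals of 29.6, 30.8 and 31.6 in Sox7+/- and 0.877, 1.18 and 0.814 in Sox7-/- cells (log2 difference −5.02, SE 0.12, adjusted p = 3.7e-09). Zscan4e gave 24.5, 26.5 and 26.7 against 0.826, 0.885 and 0.731 (−5.00), and all 7 tested Zscan4 probes were lower, by −5.20 to −4.15. For AF067061 the brightest probe gave 68.6, 71.9 and 73.5 against 2.83, 3.25 and 2.66 (−4.62, SE 0.21, adjusted p = 1.4e-07), and for Gm4340 the signals were 33, 31.4 and 35.1 against 1.45, 1.78 and 1.48 (−4.40). In none of these did the groups come near each other. Tcstv1, Tcstv3, Usp17la, Gm8300 and Arg2 were not well above background in Sox7-/- cells, with bounds from at least 2.91-fold (Arg2) to at least 24.3-fold (Gm8300). Zfp352, a retroposed zinc-finger gene of the 2-cell embryo, was read by 2 probes that disagreed. Its brighter probe gave 8.07, 8.24 and 8.79 against 17.2, 13.8 and 20.7 (1.03, adjusted p = 0.0018), and its dimmer probe was lower, by at least 1.96-fold. The brighter Zfp352 probe was under 2-fold with quantile normalization (0.89), with scaling by the median (0.98) or the spike-in controls (0.87), and without Sox7-/- replicate 3 (0.88). Many of these genes are near-identical copies in clusters, so single members are uncertain and the family is what was measured. All 13 remained lower with the slide as a term, and the summed scaled signal of the 2-cell-like markers was 49.9 to 53.2 in Sox7+/- and 15.7 to 22.1 in Sox7-/- cells. The Sox7-/- sums were mostly the signal of Zfp352, the 1 marker that was higher.

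**Figure D2:**
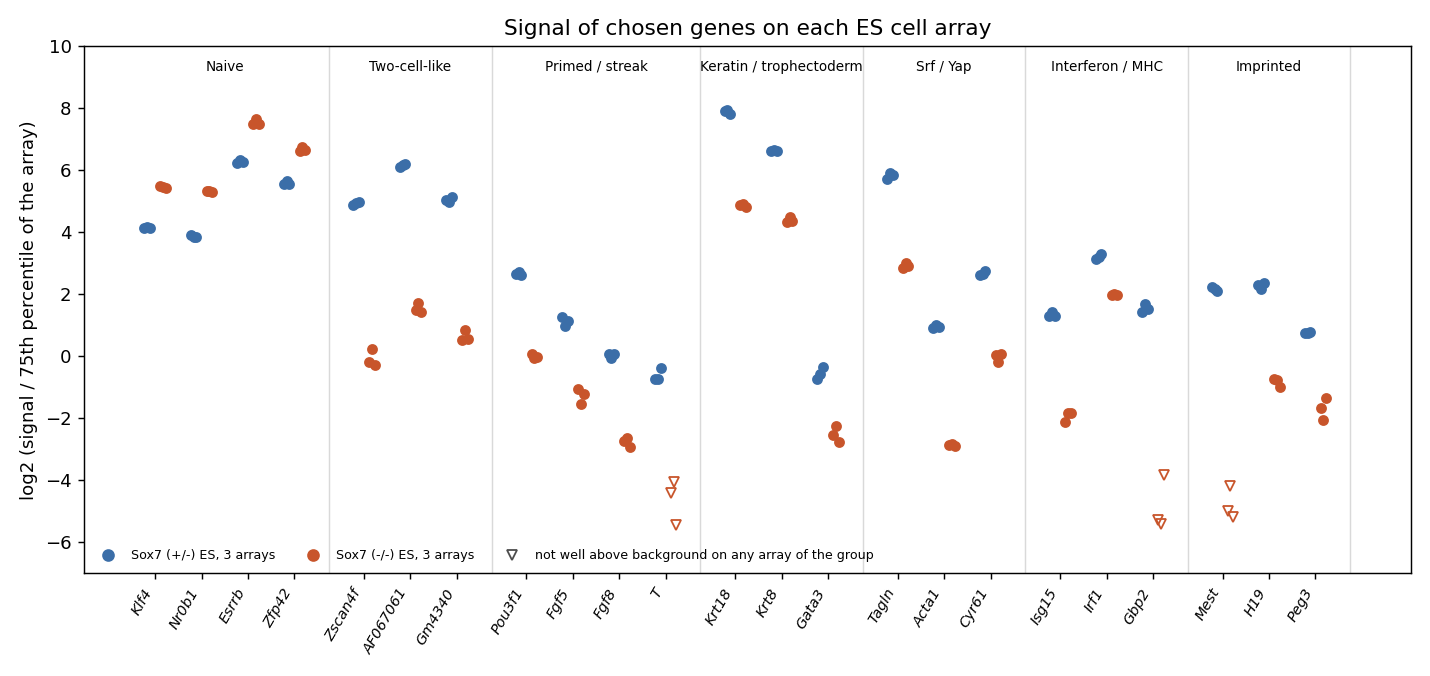
Log2 scaled signal of chosen genes on each of the 3 Sox7+/- (blue) and 3 Sox7-/- (orange) ES arrays, 1 probe per gene. Open triangles mark genes not well above background on any array of that genotype, and heights of different genes cannot be compared. In each gene shown the genotypes do not overlap, which was also so for 67.2% of all tested probes.

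Primed epiblast genes moved in both directions. Of 15 tested, 6 were lower and 2 higher. Pou3f1 (Oct6), a POU factor of the primed epiblast, had scaled signals of 6.34, 6.59 and 6.11 in Sox7+/- and 1.04, 0.958 and 0.979 in Sox7-/- cells (log2 difference −2.68, SE 0.09, adjusted p = 3.1e-08). Fgf5, the growth factor that marks that stage, gave 2.41, 1.96 and 2.2 against 0.481, 0.343 and 0.435 (−2.39, SE 0.25, adjusted p = 4.8e-05). Wnt8a, Pim2 and Sall2 were lower as well, by at least 2.36-fold, by −1.69 and by −1.17, and Pim2 lost its call once slide entered the fit (−1.33, adjusted p = 0.082). The claudin gene Cldn6, described below, was the remaining gene of the 6. Zic2 (1.45) and Foxd3 (1.04) were higher, and neither was called with the slide as a term (1.37, adjusted p = 0.14, and 1.0, adjusted p = 0.04). Foxd3 was 0.92 without Sox7-/- replicate 3. Otx2 (−0.38), Dnmt3b (−0.20) and Lef1 (−0.32) were not called.

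Of 10 tested genes of the primitive streak and mesendoderm, 4 were lower and none higher. T (Brachyury), the founding T-box gene of the streak, had scaled signals of 0.605, 0.603 and 0.77 in Sox7+/- cells and was not well above background in Sox7-/- cells, at least 7.24-fold lower. Fgf8, which drives cells out of the streak, gave 1.04, 0.959 and 1.05 against 0.152, 0.16 and 0.133 (log2 difference −2.79, SE 0.32, adjusted p = 1e-04). Evx1 and the ligand gene Wnt3 were lower by at least 1.39-fold and at least 2.03-fold. Wnt targets held some of the same genes, and 5 of 15 were lower. Sp5, a direct target of Tcf and beta-catenin, had signals of 1.66, 1.95 and 1.99 and fell by at least 20.6-fold. Rnf43, a feedback ubiquitin ligase, was lower by −1.08, and lost its call once slide entered the fit (−1.02, adjusted p = 0.15). Axin2 (−0.41), Lef1 and Nkd1 (0.71), other Wnt targets, were not called. Eomes (−0.49), Gsc (0.06) and Lhx1 (−0.38) were not called either.

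Keratins and claudins, which build epithelial filaments and tight junctions, were lower in Sox7-/- cells. Krt18 had scaled signals of 239, 246 and 222 in Sox7+/- and 29.4, 30.3 and 28 in Sox7-/- cells (log2 difference −3.01, SE 0.08, adjusted p = 4.9e-09). Its partner Krt8 gave 97.3, 99.5 and 97.6 against 20, 22.3 and 20.3 (−2.24, SE 0.07, adjusted p = 2e-08), with both probes called. Krt7 and Krt19 were lower by −2.5 and −2.18. Cldn6 gave 3.19, 3.3 and 3.52 against 0.443, 0.425 and 0.396 (−2.98, SE 0.19, adjusted p = 2e-06), and Cldn7 13, 12.2 and 11.7 against 2.15, 2.13 and 1.99 (−2.55). Each of these genes was separated by a wide gap between the genotypes. Cldn3 was lower by −1.88 and the splicing regulator Esrp1 by −1.31, and Esrp1 lost its call once slide entered the fit (−1.31, adjusted p = 0.27). In the list of epithelial and mesenchymal genes, 6 of 18 were lower and 1 higher. The 1 higher was Zeb1, a repressor of epithelial genes, with signals of 0.269, 0.318 and 0.202 against 0.97, 0.884 and 0.975 (1.86, SE 0.18, adjusted p = 2.7e-05). Cdh1 (0.23), Epcam (−0.18), Cdh2 (0.37) and Vim (0.06) were not called.

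Trophectoderm genes, 10 of 14 tested, were lower and none higher (median −1.62), 4 of these 10 being the keratins above. Gata3, a factor of the trophectoderm, had scaled signals of 0.601, 0.677 and 0.795 in Sox7+/- and 0.171, 0.211 and 0.148 in Sox7-/- cells (log2 difference −1.97, SE 0.20, adjusted p = 4.6e-05). Cdx2 (−2.12), Hand1 (−1.68), Esx1 (−1.26), Plac1 (−1.55) and Gata2 (−1.0) were also lower. Cdx2 and Gata2 were well above background on 1 of the 3 Sox7-/- arrays and were not called with the slide as a term (−2.29, adjusted p = 0.057, and −0.64, adjusted p = 0.16). Ascl2 (−0.76), Tead4 (0.15) and Fgfr2 (0.54) were not called.

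None of 11 tested regulators of the primitive endoderm was called in either direction, and their log2 differences ran from −0.59 (Hnf4a) to 0.59 (Pdgfra). At an adjusted p of 0.05 without a fold limit, Pdgfra (adjusted p = 3.6e-05) and Gata6 (0.53, adjusted p = 0.04) were higher, and Hnf4a, Dab2 (−0.58), Eomes (−0.49), Foxa2 (−0.46) and Snai1 (−0.32) were lower. With the slide as a term only Pdgfra of these 7 passed (0.52, adjusted p = 0.014). Gata6 had scaled signals of 12.8, 13.4 and 13 against 20.1, 18.4 and 18.2, and its adjusted p was 0.31 with the slide term. Whether the Gata6 probe also reads the transgene was not tested. Genes of the differentiated endoderm did differ. Of 16 visceral endoderm genes, 7 were lower and 1 higher. The endocytic receptor gene Lrp2 gave 27, 26.5 and 26.7 against 5.12, 4.4 and 7 (−2.31, SE 0.29, adjusted p = 0.00015), the transcriptional cofactor Cited1 20.1, 21.3 and 19.7 against 3.15, 3.16 and 2.8 (−2.75, SE 0.10, adjusted p = 4.9e-08) and the hedgehog ligand Ihh 5.01, 5.31 and 5.23 against 1.18, 1.15 and 1.04 (−2.21). Ttr, the thyroxine carrier, fell by at least 3.73-fold. Cubn (−1.11), Spink3 (−1.29) and Apob (at least 1.34-fold lower) were called without the slide term and not with it. Only the brightest of 2 Cubn probes was called. Trf, the transferrin gene, was higher by 1.07, with 1 of its 2 probes called. Of 14 parietal endoderm genes, 5 were lower: the proteoglycan gene Srgn (−1.63), the receptor gene Pth1r (−1.61), Fst (−1.59), Plat (−1.44) and Thbd (−2.37). The basement membrane genes Lama1 (−0.42), Lamb1 (−0.55), Col4a1 (−0.71) and Col4a2 (−0.74) were not called. Endothelial genes, 2 of 10, were lower, among them the Vegf receptor gene Flt1 with 4.05, 4.26 and 4.13 against 0.317, 0.282 and 0.336 (−3.74, SE 0.37, adjusted p = 3.6e-05) and the claudin gene Cldn5 (at least 2.42-fold).

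Targets of Srf and Yap, which encode the contractile cytoskeleton and secreted matrix proteins, were lower in 11 of 16 cases and higher in none, with a median log2 difference of −2.39. Tagln (SM22) had scaled signals of 52.7, 60.5 and 57.9 in Sox7+/- and 7.14, 8.09 and 7.54 in Sox7-/- cells (−2.91, SE 0.17, adjusted p = 9.8e-07). Skeletal actin, Acta1, gave 1.87, 1.99 and 1.93 against 0.139, 0.14 and 0.136 (−3.80, SE 0.20, adjusted p = 3.9e-07), and the regulatory light chain gene Myl9 3.55, 3.73 and 3.79 against 0.365, 0.299 and 0.336 (−3.47, SE 0.12, adjusted p = 3.3e-08). The calponin genes Cnn1 and Cnn2 were lower by −2.85 and −2.58. Among the Yap targets, Cyr61 gave 6.09, 6.28 and 6.65 against 1.03, 0.882 and 1.05 (−2.69), Ctgf was lower by −2.03 and Ankrd1 by at least 9.82-fold. In each of these the genotypes were far apart. Acta2 (−2.20), Tpm1 (−1.25) and Flna (−1.03) completed the 11, and all 11 were called in the fit with a slide term. Actc1 (−3.20) had an adjusted p of 0.097, and Amotl2 (−0.74), Tpm2 (−0.66), Vcl (−0.86) and Srf itself (−0.43) were not called by their brightest probes, with the other of 2 Vcl probes called lower.

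The 250 bases before their RefSeq starts were searched on both strands, with 50 bases after the start, for the CArG box, the element bound by Srf, in which CC and GG flank a run of A and T. Promoters were found for 14 of the 16 genes by symbol, and 6 (42.9%) held a CArG box, against 1.63% of 10699 tested genes with a promoter and 1.81% of all 27025 RefSeq genes. The list was made of known targets, so a high share comes with the choice of its members. Of the 9 lower genes with a promoter 3 held a box, and of the 5 not called also 3. Their upstream 250 bases are printed 5′ to 3′ from GRCm38.p6, with the CArG box in capitals, as the 3 lower genes in which the match lies before the start. The regions are chr8:123894776-123895025 on the minus strand for Acta1, chr2:156775214-156775463 on the plus strand for Myl9 and chr10:79988350-79988599 on the plus strand for Cnn2. A match is a string of letters and does not show binding.
Acta1: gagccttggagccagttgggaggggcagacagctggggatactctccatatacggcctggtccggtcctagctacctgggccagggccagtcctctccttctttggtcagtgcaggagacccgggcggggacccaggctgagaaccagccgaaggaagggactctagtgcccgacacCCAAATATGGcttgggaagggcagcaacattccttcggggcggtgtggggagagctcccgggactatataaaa
Myl9: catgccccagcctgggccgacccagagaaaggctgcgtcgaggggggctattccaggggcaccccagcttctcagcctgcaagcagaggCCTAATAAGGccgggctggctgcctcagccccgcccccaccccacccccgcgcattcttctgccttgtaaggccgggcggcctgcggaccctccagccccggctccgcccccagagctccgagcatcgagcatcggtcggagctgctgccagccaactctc
Cnn2: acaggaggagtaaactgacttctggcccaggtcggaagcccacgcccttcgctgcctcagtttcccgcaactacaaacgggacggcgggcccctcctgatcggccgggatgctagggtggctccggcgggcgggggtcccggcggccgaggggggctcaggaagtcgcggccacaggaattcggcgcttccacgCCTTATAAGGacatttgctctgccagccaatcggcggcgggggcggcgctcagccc
The matches end 64, 152 and 47 bases before the start. Actc1, Srf and Vcl also held a CArG box and were not called.

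Interferon-response and antigen-presentation genes were lower in 6 of 18 cases and higher in none. Gbp2, a guanylate-binding protein gene, had scaled signals of 2.66, 3.22 and 2.89 in Sox7+/- cells and 0.0258, 0.0235 and 0.07 in Sox7-/- cells, where it was not well above background, at least 32.3-fold lower (adjusted p = 1.3e-06). The ubiquitin-like modifier gene Isg15 gave 2.47, 2.66 and 2.44 against 0.229, 0.282 and 0.284 (log2 difference −3.26, SE 0.11, adjusted p = 1.8e-08), with both probes called. Psmb8, an immunoproteasome subunit gene, fell by at least 10.9-fold and Oasl2 by at least 5.56-fold. The peptide transporter gene Tap2 was lower by −1.60, and Irf1, a transcription factor of this response, gave 8.74, 9.13 and 9.78 against 3.94, 4.05 and 3.97 (−1.21, SE 0.11, adjusted p = 2.1e-05). The class I genes H2-K1 (0.24) and H2-D1 (0.09), their partner B2m (−0.78), Ifitm3 (−0.22) and Psmb9 (0.93) were not called. Irf7, Ifit1, Ifit2, Ifit3 and Rsad2 were too dim to be tested.

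In the same promoter windows, the letters GAAA, any 2 bases and GAAA, the core of the interferon-stimulated response element, were present on either strand in 7 of the 17 genes of this list with a promoter (41.2%), against 3.35% of tested genes and 3.99% of all RefSeq genes. Here too the list was made of known responders, so a high share comes with its choice. Of the 5 lower genes with a promoter, Gbp2 and Isg15 held them, and these windows are shown with the match in capitals. The coordinates are chr4:156200819-156201068 on the minus strand for Isg15 and chr3:142620413-142620662 on the plus strand for Gbp2, where the match is read on the opposite strand.
Isg15: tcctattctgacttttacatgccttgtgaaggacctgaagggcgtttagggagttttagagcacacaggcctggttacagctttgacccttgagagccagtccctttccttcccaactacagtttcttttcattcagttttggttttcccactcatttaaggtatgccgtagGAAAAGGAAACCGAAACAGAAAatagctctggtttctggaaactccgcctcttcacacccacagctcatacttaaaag
Gbp2: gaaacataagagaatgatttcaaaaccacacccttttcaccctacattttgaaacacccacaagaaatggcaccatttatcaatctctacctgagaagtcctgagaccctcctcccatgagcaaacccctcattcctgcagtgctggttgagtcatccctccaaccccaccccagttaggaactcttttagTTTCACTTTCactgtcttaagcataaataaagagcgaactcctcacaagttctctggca
Isg15 held 3 overlapping matches, which end 69, 63 and 57 bases before the start, and the Gbp2 match ends 50 bases before it. B2m, Bst2, Ifitm2, Ifitm3 and Oas1a held the letters too and were not called. The Sox motif AACAAT, searched on both strands, was found in 9.92% of 242 higher genes, 8.3% of 687 lower genes and 7.24% of all tested genes with a promoter, against 12.2% of all RefSeq genes.

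Of 23 imprinted genes, which are expressed from 1 parental allele, 8 were lower in Sox7-/- cells and none higher. Mest, expressed from the paternal allele, had scaled signals of 4.71, 4.54 and 4.33 in Sox7+/- and 0.0313, 0.0546 and 0.0274 in Sox7-/- cells. It was not well above background in Sox7-/- cells and at least 50-fold lower (adjusted p = 2e-08), the largest bound among all called probes, and its other 2 probes were lower too. In XEN-like cells Mest was again called lower, and was again not well above background on any Sox7-/- array. The neighbouring genes Copg2 (0.56 and 0.65 for 2 probes) and Cep41 (−0.67 to 0.20 for 3 probes) on chromosome 6 were not called. H19, a maternally expressed noncoding RNA, gave 4.96, 4.45 and 5.19 against 0.595, 0.587 and 0.507 (−3.11, SE 0.19, adjusted p = 1.5e-06), and all 6 of its probes were lower. Its paternally expressed neighbour Igf2 was lower by −1.51 as well. Peg10 gave 1.34, 1.41 and 1.25 against 0.198, 0.211 and 0.234 (−2.64, SE 0.11, adjusted p = 7.1e-08), and Sgce, whose probe lies 64.9 kb from those of Peg10 in the same paternally expressed domain, was lower by −1.33. Peg3 (−2.45), Magel2 (−2.23) and Airn (−1.75) were the others, of which Magel2 (−1.20, adjusted p = 0.099) and Airn (−2.04, adjusted p = 0.22) were not called with the slide as a term. The probes of Mirg, a maternally expressed transcript, disagreed. Its brightest probe was lower by −0.77 and not called, another was lower by −1.21, and the remaining probe was higher, with 0.349, 0.287 and 0.43 against 1.37, 2.57 and 2.12 (2.48, adjusted p = 7.8e-05). Snrpn (−0.20) and Igf2r (−0.12) were not called. Of 2 Dlk1 probes the brighter was not called (0.93) and the dimmer was higher by 1.06, and not called with the slide term (0.80).

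Germline and meiosis genes split, with 2 of 19 higher and 3 lower. Stra8, the gate to meiosis that retinoic acid switches on, had scaled signals of 0.683, 0.65 and 0.604 in Sox7+/- and 6.72, 6.36 and 6.11 in Sox7-/- cells (log2 difference 3.31, SE 0.19, adjusted p = 7e-07). Tex11, an X-linked meiosis gene, gave 0.143, 0.17 and 0.118 against 0.434, 0.521 and 0.442 (1.71, SE 0.15). The X-linked homeobox genes Rhox6 (−1.66) and Rhox9 (−1.25) and the meiotic cohesin gene Smc1b (−1.26) were lower, and with the slide as a term Rhox9 (−1.37, adjusted p = 0.055) and Smc1b (−1.08, adjusted p = 0.11) were not called. Of 13 Hox genes tested, Hoxb13 was higher by 1.15 and Hoxc9 lower by −1.55. Hoxb13 lost its call once slide entered the fit (1.28, adjusted p = 0.1) and was 0.96 without Sox7+/- replicate 2.

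Signalling lists held few called genes. In the Nodal pathway, Inhbb, which encodes an activin subunit, gave scaled signals of 1, 1.17 and 1.08 in Sox7+/- and 4.93, 4.2 and 4.71 in Sox7-/- cells (log2 difference 2.09, SE 0.12, adjusted p = 9.4e-07). The activin-binding protein gene Fst gave 8.42, 8.08 and 7.98 against 2.79, 2.73 and 2.6 (−1.59, SE 0.10). Nodal itself gave 11.3, 12.4 and 12.1 against 6.06, 6.07 and 6.23, just under 2-fold (−0.96, adjusted p = 0.00039). The ligand gene Bmp4 was higher by 1.56 (adjusted p = 0.013) and the Bmp target Id2 lower by −1.81, while Id1 (−0.37) and Id3 (0.01) were not called. Bmp4 lost its call once slide entered the fit (1.13, adjusted p = 0.38). Of the ERK targets, Ier3 (−1.84) and Fos (at least 2.52-fold) were lower, and the feedback genes Spry2 (0.79), Spry4 (0.62), Dusp6 (0.21) and Etv4 (0.60) were not called. Of 13 glucocorticoid-responsive genes, Ddit4 was lower with 53.3, 60.4 and 56.1 against 8.62, 7.43 and 7.94 (−2.82, SE 0.20, adjusted p = 3e-06). The receptor gene Nr3c1 was lower by −1.31, with 1 of its 2 probes called. Fkbp5 (0.50), Tsc22d3 (0.30) and Sgk1 (−0.08) were not called.

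Lists of stress and metabolism held few called genes. Among p53 targets 3 of 17 were lower (Perp −1.75, Btg2 −1.74 and Phlda3 −1.01) and Pmaip1 was higher (1.08). Phlda3 was −0.98 without Sox7+/- replicate 2 and −0.96 without Sox7-/- replicate 3, and Pmaip1 was not over 2-fold without Sox7+/- replicate 1. Of 25 glycolysis and hypoxia genes, Pfkp (1.18) and Car9 (1.30) were higher and the peptide gene Adm lower by at least 2.39-fold, and with the slide as a term Pfkp (0.90) and Car9 (0.60) were not called. Only 1 of 2 Pfkp probes was called. Car9 also lost its call without Sox7+/- replicate 3 (1.12, adjusted p = 0.061) or Sox7-/- replicate 1 (1.07, adjusted p = 0.061). Of 25 genes of cholesterol and fatty acid synthesis, 2 were lower and none higher, and Insig1, a regulator of sterol sensing, was lower by −1.84. In the amino acid response 2 of 23 genes were higher and Atf3 lower (−1.98), with a median of 0.52. Nupr1 (1.48, adjusted p = 0.043) lost its call without any 1 of the 6 ES arrays, with adjusted p from 0.071 to 0.11, and Shmt2 (1.01) was under 2-fold without Sox7+/- replicate 1 (0.99) or 3 (0.98) or Sox7-/- replicate 2 (0.99). ER chaperones, 12 genes, and heat shock genes, 10 genes, held no called gene. In the neural list Tubb3 was higher by 1.08 and Nes (−1.56) and Meis1 (−1.17) lower, of 9 tested. Fibroblast genes did not move together, with Col1a1 higher (1.09) and Col1a2 (−1.37) and S100a4 (−1.40) lower of 7. With the slide as a term Col1a1 (0.82, adjusted p = 0.19) and S100a4 (−2.0, adjusted p = 0.065) were not called. Replicate 2 of Sox7+/- decided S100a4, whose difference was −0.95 without it, and Col1a1 was 0.98 without Sox7+/- replicate 1. On the Y chromosome only Eif2s3y was bright enough to be tested, and it gave 0.798, 0.78 and 0.987 against 1.48, 1.46 and 1.45 (0.78), under 2-fold.

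The largest rises outside the lists were of single genes. Phf6, an X-linked chromatin protein gene, had scaled signals of 0.208, 0.205 and 0.189 in Sox7+/- and 2.97, 3.17 and 3.32 in Sox7-/- cells (log2 difference 3.97, adjusted p = 3e-06). Syt10, a synaptotagmin gene, was variable within both genotypes, at 0.222, 0.107 and 0.599 against 2, 4.93 and 3.72 (3.78, adjusted p = 0.00058), and lost its call once slide entered the fit (3.02, adjusted p = 0.098). Pou4f2, a POU factor of retinal ganglion cells, gave 0.378, 0.311 and 0.366 against 2.88, 2.44 and 2.91 (2.96), and Ttc29, whose probe lies 38.8 kb away on chromosome 8, gave 0.104, 0.167 and 0.12 against 0.61, 0.882 and 0.674 (2.48). Tpsg1 (3.1), Vipr1 (2.69), Napsa (2.61), Pramel7 (2.5), Sema5b (2.45) and Tgfbi (2.40) followed, and Sema5b was 1.09 (adjusted p = 0.057) with the slide as a term. Only 1 of 2 Vipr1 probes was called. The homeobox gene Gsx2 rose by at least 4.51-fold from signals not well above background in Sox7+/- cells, as did Msc, Mras and Gpr133 by at least 4.19-, 4.06- and 3.87-fold. Among the largest falls, most were unnamed gene models, several of them near-identical copies of one another: Gm21319 (−5.26), Gm2016 (−4.88), Gm4303 (−4.77), Gm20767 (−4.76), Gm4312 (−4.73), Gm11237 (−4.69), A430089I19Rik (−4.45) and BB287469 (−4.39), with Gm2022 lower by at least 32.1-fold. Sprr2a2, a cornified envelope gene, fell by at least 27.8-fold, with signals of 2.44, 2.52 and 2.59 in Sox7+/- cells, although only 1 of its 2 probes was called.

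The array also carried probes to unnamed noncoding regions. Of 1900 such regions tested, 43 had 1 or more probes called higher and 174 had 1 or more called lower. Over all tested probes 2.01% were higher and 6.57% lower. A region with several probes has more chances of a call, so the 2 kinds of share are not alike. The region with the largest rise was chosen after its values were seen. It lies on chromosome 10, 94900849 to 94928059 on the reverse strand, and 9 of its 10 probes were higher, with a median log2 difference of 3.61. Most of these 9 were not well above background on any Sox7+/- ES array, so this median is not a measured fold. In XEN-like cells 9 of its probes were also higher, with a median of 4.59. It lies 25.3 kb from the nearest Socs2 probe. Socs2 had a log2 difference of 1.09 in ES cells and of 0.05 in XEN-like cells by its brightest probe. The brightest probe of the region in Sox7-/- cells had signals of 0.19, 0.186 and 0.219 in Sox7+/- and 1.37, 1.58 and 1.5 in Sox7-/- cells (2.90, region chr10:94900849-94928059_R). A second region, on chromosome 6 from 52046805 to 52072744 on the forward strand, had all 5 probes higher, with a median of 2.44, and a median of −0.13 in XEN-like cells.

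The same probes were then read in XEN-like cells. They had been chosen for their signal in ES cells, and 712 of the 2130 called in ES cells were not well above background on all 3 XEN-like arrays of either genotype, so the size of their difference there is uncertain. Over all tested probes 895 were higher (3.6%) and 840 lower (3.38%) in Sox7-/- XEN-like cells. Of the 499 probes higher in Sox7-/- ES cells, 91 (18.2%) were also higher and 16 (3.21%) lower in Sox7-/- XEN-like cells. Of the 1631 lower, 278 (17%) were also lower and 131 (8.03%) were higher. Tested directly, the difference between genotypes was not the same in ES and XEN-like cells for 2415 probes (9.73%). Among the 19419 probes with a signal well above background on each of the 12 arrays it was not the same for 1245 (6.41%), which included 83 of the 172 higher and 375 of the 680 lower in Sox7-/- ES cells. The called probes were chosen by their difference in ES cells, which is part of this test, so a high share among them comes with the choice. Zscan4f went from −5.02 in ES cells to 0.78, Krt18 from −3.01 to 0.01 and Pou3f1 from −2.68 to 0.65. H19 changed direction, from −3.11 to 2.22. Gbp2, at least 32.3-fold lower in ES cells, was called higher in Sox7-/- XEN-like cells, where it was not well above background on any Sox7+/- array. Mest, Ddit4 (−2.82 and −2.06), Nr3c1 (−1.31 and −1.14 by its brightest probe) and Ccnd2 (−1.67 and −1.95) were lower at both stages, with no called change between them. Zfp42 was higher at both (1.09 and 1.11). In the plot of both differences, Sox7 and Mest lie in the lower left corner and of the 852 called probes with such a signal on every array 630 differ by less than 2-fold in XEN-like cells.

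**Figure D3:**
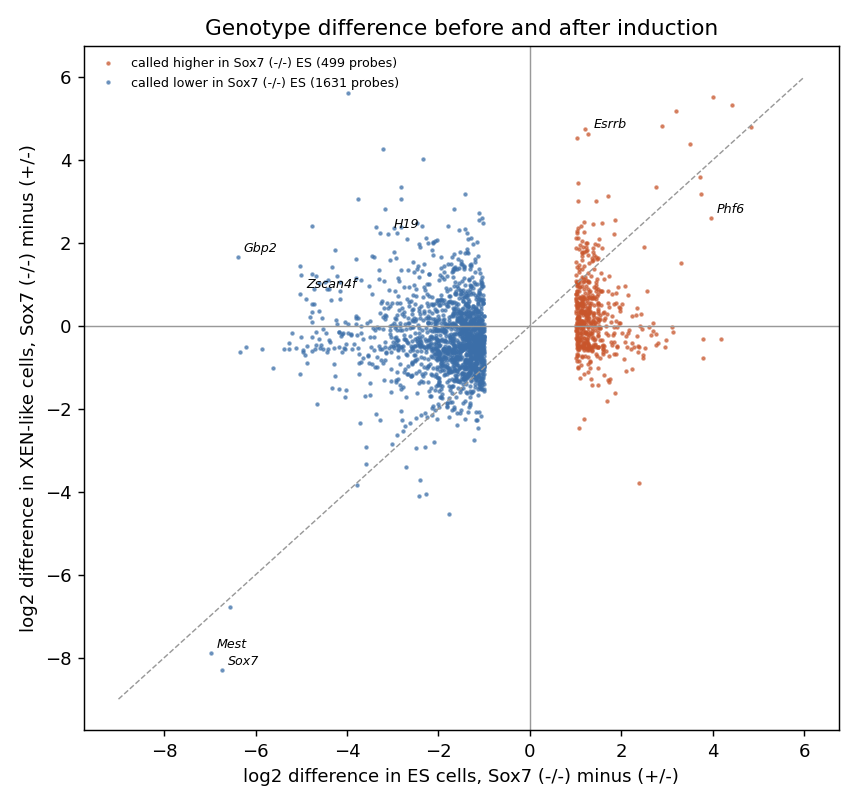
Each point is 1 of the 2130 probes called in ES cells, with its log2 difference between genotypes in ES cells on the horizontal and in XEN-like cells on the vertical axis. The dashed line marks equal differences, and the 131 probes lower in ES cells and called higher in XEN-like cells lie in the upper left. Of the 2130, 712 were not well above background on all 3 XEN-like arrays of either genotype.

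Adding the slide to the fit left the direction of most differences in place and removed part of the calls. Of the 2130 called probes, 2112 kept their sign and 1249 (58.6%) their call, and 315 probes were called only with the slide term. With it, 362 probes were higher and 1202 lower. The slide term was over 2-fold for 507 of all tested probes and also passed an adjusted p of 0.05 for 70. Among called probes its median size was 0.19, against 1.48 for the genotype difference. These probes were chosen for a genotype difference of over 2-fold, and not by their slide term. The 1.48 therefore comes with that choice, as may part of the kept signs, and the 2 sizes cannot be weighed against each other. The slide term rests on 1 array of Sox7-/- XEN-like cells on slide 1 against 2 on slide 2. Calls could be lost with little change in the difference, as for Zic2 (1.45 without and 1.37 with the slide term) and Rhox9 (−1.25 and −1.37). A lost call is therefore not by itself a measure of the slide. By list, 13 of the 13 lower 2-cell-like genes, 11 of the 11 lower Srf and Yap targets and 8 of the 10 lower trophectoderm genes were called with the slide term. Of the 6 higher pluripotency genes, Klf4, Esrrb, Zfp42 and Nr0b1 were called with it. Klf2 (0.70 without and 1.30 with the slide term) and Tfcp2l1 (0.92 and 1.13) were called higher only with it, and Tfap2c (−0.75 and −1.12) lower only with it. For amino acid response genes no rise was called with it.

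**Figure D4:**
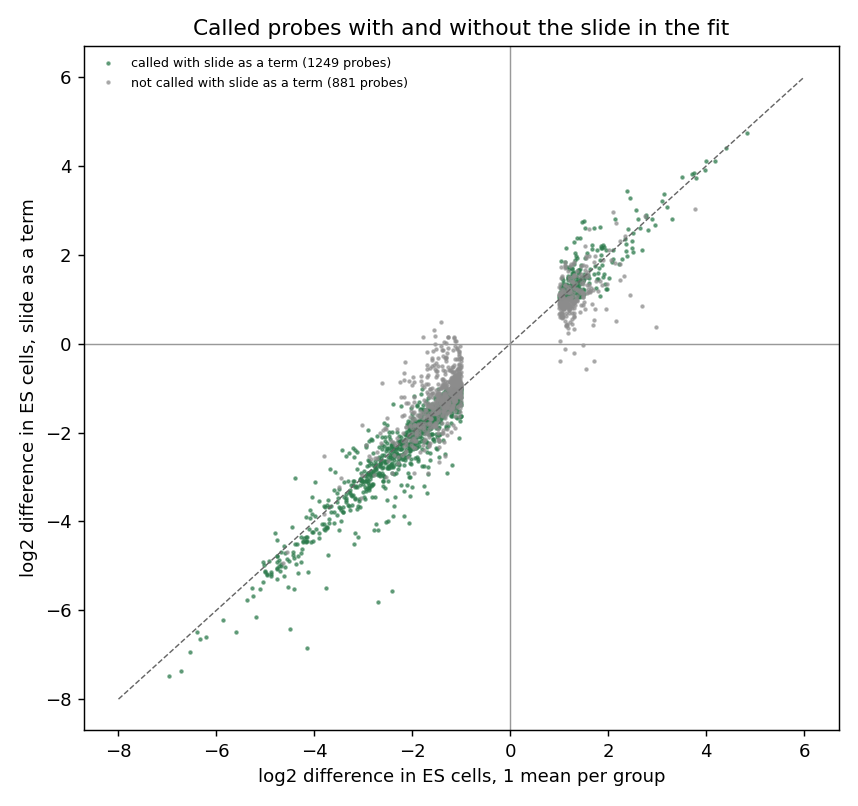
Log2 difference between Sox7-/- and Sox7+/- ES cells for the 2130 called probes, from the fit with 1 mean per group (horizontal) and with slide as a further term (vertical). Green probes, 1249, were called in both fits, grey probes, 881, lost the call, and the dashed line marks equal values.

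The median log2 difference ran from −0.04 on chromosome 10 to 0.15 on chromosomes 9, 13 and 17, against 0.10 over all probes. Chromosome 10 had the largest share of lower probes, 10.2%, against 6.57% over all. On chromosome 14, which holds Sox7, 1.78% were higher and 8.71% lower. Within 2 Mb of the Sox7 probe 48 other probes were tested, and 2 were called, a lower share than the 8.58% over all tested probes. Dleu7, 1674 kb away, was higher by at least 2.41-fold and lost its call once slide entered the fit (1.82, adjusted p = 0.1), and Fam124a, 1344 kb away, was lower by at least 1.88-fold.

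**Figure D5:**
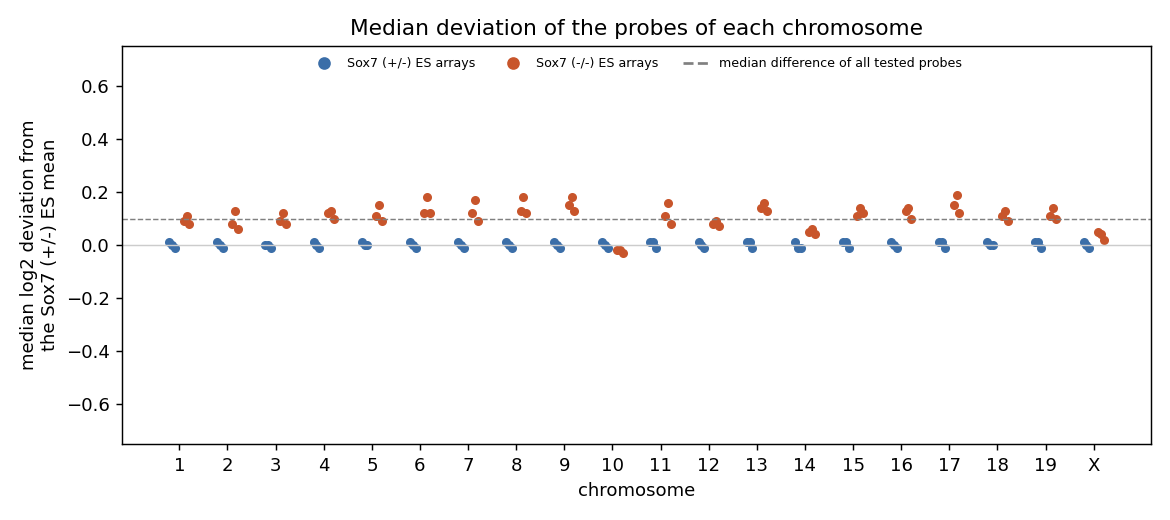
Median log2 deviation of the tested probes of each chromosome from the Sox7+/- ES mean, for each Sox7+/- (blue) and Sox7-/- (orange) ES array. The dashed line is the median difference of all probes, 0.10. With this scaling, chromosome 10 is the 1 chromosome on which all 3 Sox7-/- arrays lie below zero, and the place of zero depends on the scaling.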

How the data were processed

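RNA of 12 samples was hybridised to 1-colour Agilent arrays, and the authors deposited the scanner output of Agilent Feature Extraction 10.7.3.1, in which each spot has a background-subtracted intensity and flags, and a table of the mean spot signal without scaling. Probe positions are on mm9. Here the intensity was divided by the 75th percentile of its array and log2 transformed, and spots of 1 probe were averaged. Control spots were left out, as were probes not well above background on all 3 arrays of either ES group. Differences were fitted with limma 3.58.1 in R 4.3.3 (lmFit and eBayes) over all 12 arrays with 4 group means and 8 residual degrees of freedom, and adjusted by Benjamini-Hochberg. A probe was called at an adjusted p under 0.05 and more than 2-fold. Scripts were tested on simulated data. For a bound, the dim group was set to the higher of its own signal and the lowest signal among probes well above background on each array.

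Genes were read by their brightest probe in 32 lists. The members and lists were chosen with earlier results of these data known. The genes named were Sox7, Pou5f1, Sox2 and Nanog, up to 3 called genes in each direction from each list, the 12 largest rises and 12 largest falls, and up to 5 of the largest bounds in each direction. Other list members are named to complete the account of their list, and the noncoding regions, Dleu7 and Fam124a were named after their values were seen. Alternatives were other background corrections, scalings, filters and tests, the deposited table, leaving out each ES array, and terms for the slide and the replicate number. Promoter sequences are from RefSeq on GRCm38.p6, matched by symbol. A few genes that the rule would name are not reported here.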

Additional observations from a re-analysis of the deposited data

Results flagged for a closer look

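For 2415 of the 24830 probes, the difference between Sox7-/- and Sox7+/- cells was not the same in ES and XEN-like cells by the limma test of the difference itself. This also held for 174 of the 451 tested genes of the lists, by their brightest probe. Values below are the log2 difference in ES cells minus that in XEN-like cells for the genes chosen by the rule for named genes, each with an adjusted p under 0.05 and more than 2-fold. Most of these genes were chosen by their difference in ES cells, which is part of the value, so large values come with the choice. The genes named first were well above background on 1 or more arrays of each genotype at both stages. Genes of the 2-cell-like state and related gene models with such a value were Zscan4f (−5.80), Gm4340 (−5.31), Zfp352 (1.75), Gm4303 (−6.03), Gm4312 (−5.61) and Gm20767 (−5.28).

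Epiblast, streak and Wnt genes with such a value were Pou3f1 (−3.33), Cldn6 (−4.75), Zic2 (−1.55) and Fgf8 (−2.68). Epithelial, trophectoderm and endoderm genes with such a value were Krt18 (−3.02), Krt8 (−2.32), Krt7 (−3.38), Cldn7 (−4.10), Zeb1 (3.49), Cited1 (−3.68), Lrp2 (−1.80), Thbd (−1.92), Srgn (−1.65) and Pth1r (−2.09). Cytoskeletal, endothelial, fibroblast and neural genes with such a value were Acta1 (−4.96), Myl9 (−2.96), Flt1 (−2.58), Col1a2 (−1.55), Nes (−1.36) and Tubb3 (3.54).

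Interferon, imprinted, germline and Hox genes with such a value were H19 (−5.33), Peg10 (−2.72), Mirg (3.18), Rhox6 (−3.40), Rhox9 (−3.22) and Hoxc9 (−1.38). Signalling, stress and metabolic genes with such a value were Ier3 (−1.06), Id2 (−3.02), Socs2 (1.05), Perp (−2.62), Btg2 (−1.45), Pfkp (1.18), Insig1 (−2.38), Nupr1 (2.91) and Shmt2 (1.31). Other genes with large changes with such a value were Phf6 (1.39), Syt10 (4.55) and Vipr1 (2.62).

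The remaining genes were not well above background on any array of at least 1 genotype at 1 or both stages, so the size of their values rests on a signal at background and is not a measured fold. They were Sox7 (1.57), Zscan4e (−6.21), AF067061 (−4.30), Gm8300 (−5.32), Tcstv1 (−4.73), Gm21319 (−4.70), Gm2016 (−4.39 and −4.15 for 2 probes), Gm2022 (−4.57), Gm11237 (−4.53), A430089I19Rik (−4.28), BB287469 (−4.06), Sox2 (1.16), Gbx2 (2.27), Wnt8a (−2.43), Foxd3 (1.39), T (−3.59), Wnt3 (−2.63), Sp5 (−4.60), Ttr (−4.55), Ankrd1 (−2.34), Cldn5 (−1.15) and Col1a1 (1.15). The others of this kind were S100a4 (−1.72), Gbp2 (−8.04), Oasl2 (−4.50), Psmb8 (−4.21), Stra8 (1.80), Tex11 (−1.42), Smc1b (−2.45), Fos (−2.48), Inhbb (2.49), Osmr (−2.10), Adm (−3.79), Tpsg1 (3.13), Pou4f2 (3.46), Napsa (2.63), Ttc29 (3.25), Sema5b (2.52), Tgfbi (2.41), Gsx2 (4.12), Msc (3.05), Mras (3.23), Gpr133 (2.87) and Sprr2a2 (−5.53).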

How the results depend on the processing

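The counts of probes higher (499) and lower (1631) in Sox7-/- ES cells moved by over 1.5 times in a few settings. With normexp background correction they were 210 and 691 and from the deposited mean spot signals 252 and 781, with scaling by 7 spike-in probes 322 were higher, and among probes well above background on all 6 ES arrays 807 were lower, fewer probes being tested. The share of called probes that were higher was 13.6% with the spike-in controls and 32.4% with that filter, against 23.4%. For the difference between ES and XEN-like cells, the counts of higher (789) and lower (1626) probes were 480 and 880 with normexp, 326 and 2862 with the spike-in controls, and 206 probes were higher from the deposited mean spot signals and 3537 without a filter on dim probes. This test could not be made with the 6 ES arrays alone. Leaving out 1 ES array gave 459 to 502 higher and 1510 to 1676 lower. Of the 111 probes named by the rule, 16 lost their call with the slide as a term, 22 with normexp, 14 in the deposited table and 10 with the spike-in controls, and no called probe changed direction. Of the 32 list medians, 22 moved by more than the spread between arrays with the slide as a term, 31 with the spike-in controls and 22 with quantile normalization. All 20 chromosome medians moved with the spike-in controls and with quantile normalization, and 6 with the slide as a term. With the slide as a term the germline median went from 0.26 to −0.03 and the Hox median from −0.17 to 0.09. The cause was not tested.

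Same-numbered ES samples of both genotypes did not deviate together, with correlations of −0.0396, 0.081 and 0.0927, so the numbers were not taken to pair the samples. With the replicate number as a block, 499 probes were higher and 1650 lower, and no call of a named probe changed.

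Precision was limited by 3 arrays a group and by signal over background, since 635 of the lower probes were not well above background on any Sox7-/- ES array and have only a bound.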
